A study of Mus musculus with 18 samples.

Results

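The regions described here are the narrow H3K9me3 peaks of wild-type mouse embryonic fibroblasts (MEFs) on chromosomes 8 and 11. They were chosen by 3 properties of the wild-type (WT) peak list, namely the chromosome, the presence of a peak and a width below 2000 bp. This gave 3349 peaks of the 14425 in the list, 1989 on chromosome 8 and 1360 on chromosome 11. The widest peak below the limit measured 1992 bp (score 469.25), after 1988 bp (421.73) and 1965 bp (353.03), and the narrowest left out measured 2000 bp (480.03), 2003 bp (313.03) and 2005 bp (490.85). A further 78 peaks on these chromosomes were at or above the limit. Because the WT list chose the regions, their number, density, score and width are given as a description.

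Chromatin immunoprecipitation with sequencing (ChIP-seq) was performed on MEFs of embryonic origin, labelled C57BL/6 and given as C57BL/6J in the methods of the study, either WT with both Kap1 alleles flanked by loxP sites or Kap1 knockout (KO). H3K9me3 and H3K27ac were each profiled in 1 library per genotype, so no difference between genotypes has a replicate check and no p-value is given. KAP1 itself was profiled in 1 library of Hepa 1.6, a WT hepatoma line from a C57L mouse. Whether the KO cells used for ChIP-seq were a single clone is not given in the sources used here, although the KO MEFs of the RNA-seq were a selected clone grown for many passages beside their non-excised counterpart. At the start of 11 of 12 fibroblast genes, such as Col1a1 and Prrx1, an H3K27ac peak lay within 1 kb in WT cells, and at 10 of 12 in KO cells, with Lum at 0 in both and Dcn without a peak in KO. Epithelial genes had a peak at 1 of 4 starts in WT (Krt8) and 0 of 4 in KO, endothelial genes at 1 of 2 in both (Pecam1), and the haematopoietic, pluripotent and hepatocyte genes at 0 of 3, 0 of 3 and 0 of 2 in both. The start of Trim28, the gene that encodes KAP1, had an H3K27ac peak in both genotypes, which does not check the deletion.

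H3K9me3 is the trimethylation of lysine 9 of histone H3, a mark of heterochromatin that is bound by HP1 proteins. KAP1 is recruited to DNA by KRAB zinc finger proteins and brings the methyltransferase SETDB1, which places H3K9me3 over retroelements and some genes. H3K27ac, the acetylation of lysine 27, marks active promoters and enhancers.

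The stretches below are shown because the results turn on them. All are the forward strand of mm9 from the reference genome, each of 150 bases, in lower case with CpG dinucleotides in capitals. The first is the middle of the peak with the highest score on chromosome 8, near Tmem66 (chr8:35256003-35256152). The next is the middle of the peak with the next highest score on chromosome 8, in an intron of Mef2b (chr8:72677997-72678146). This peak had 210 near copies elsewhere on chromosomes 8 and 11. The following pair are the middles of the highest scoring peaks that overlapped a KO peak, one between genes on chromosome 8 (chr8:26371735-26371884) and one in an exon of the pseudogene Gm11623 on chromosome 11 (chr11:104676138-104676287). The last pair are copies of 1 stretch in different peaks of an array on chromosome 8 (chr8:57991944-57992093 and chr8:57974972-57975121).
Tmem66 peak: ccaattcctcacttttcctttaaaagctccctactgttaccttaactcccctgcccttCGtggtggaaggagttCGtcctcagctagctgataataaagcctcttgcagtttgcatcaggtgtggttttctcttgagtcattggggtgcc
Mef2b peak: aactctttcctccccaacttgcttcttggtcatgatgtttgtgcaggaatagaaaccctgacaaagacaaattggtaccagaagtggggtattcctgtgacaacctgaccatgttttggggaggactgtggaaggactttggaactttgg
Chromosome 8 peak found in both genotypes: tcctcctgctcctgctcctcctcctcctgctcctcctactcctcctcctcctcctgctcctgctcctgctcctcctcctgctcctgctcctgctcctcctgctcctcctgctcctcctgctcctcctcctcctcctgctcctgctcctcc
Gm11623 peak found in both genotypes: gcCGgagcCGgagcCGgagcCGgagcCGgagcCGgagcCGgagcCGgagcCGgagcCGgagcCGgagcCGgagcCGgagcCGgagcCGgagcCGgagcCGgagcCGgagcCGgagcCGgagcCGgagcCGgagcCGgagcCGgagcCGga
Array copy A: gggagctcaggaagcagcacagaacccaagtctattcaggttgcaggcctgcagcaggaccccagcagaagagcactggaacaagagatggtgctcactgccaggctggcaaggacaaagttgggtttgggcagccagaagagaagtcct
Array copy B: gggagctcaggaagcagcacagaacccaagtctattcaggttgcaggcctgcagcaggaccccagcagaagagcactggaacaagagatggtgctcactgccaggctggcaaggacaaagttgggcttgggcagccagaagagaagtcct
The Tmem66 stretch held 2 CpG in 150 bases. The chromosome 8 stretch found in both genotypes is a run of short CTCCTG-like units without a CpG, and the Gm11623 stretch is a run of 1 unit of 6 bases with 25 CpG. Array copies A and B differed at 1 of 150 bases (99.3% identity). Copy B was among the closest matches to copy A in the array. Most of the other array peaks matched this stretch at only 36.7% to 40.7%.

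Narrow H3K9me3 peaks lay on chromosome 8 at 15.1 per Mb, the highest density among the autosomes, and on chromosome 11 at 11.2 per Mb. Chromosome 11 ranked 4 of the 19 autosomes, after chromosome 10 (11.7 per Mb) and chromosome 17 (11.3 per Mb), and was followed by chromosomes 19 (10.6) and 15 (9.50). The remaining autosomes were sparser, down to 0.870 per Mb on chromosome 18, and the median of the 17 other autosomes was 3.79. A dense H3K9me3 landscape was therefore shared with at least chromosomes 10 and 17, and chromosome 11 did not stand apart from them. Against the 17 other autosomes pooled (10682 peaks, 4.81 per Mb), the density was 3.14-fold on chromosome 8 (95% interval 2.99 to 3.29) and 2.32-fold on chromosome 11 (2.19 to 2.45). These and the intervals below cover counting error only, and not the variation between libraries. The peaks covered 1.03% of chromosome 8, 0.687% of chromosome 11 and 0.276% of the other autosomes.

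**Figure D1:**
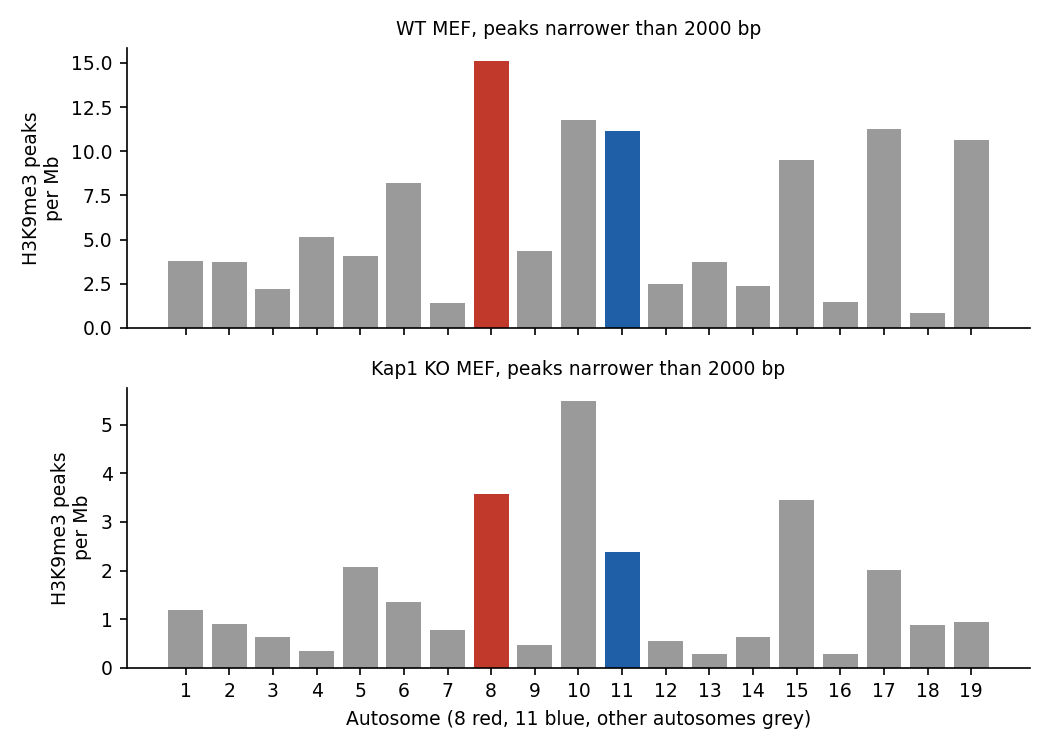
Peaks narrower than 2000 bp per Mb (y axis) on each autosome (x axis) in the WT list (top) and the Kap1 KO list (bottom), with chromosome 8 in red, 11 in blue and the other autosomes in grey. Each bar is 1 library. Chromosome 8 is highest in WT at 15.1 per Mb, and chromosome 10 is highest in KO at 5.48 per Mb.

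Scores and widths on chromosome 8 were above those of the other autosomes, whereas those on chromosome 11 were close to those of the other dense chromosomes. The score is the caller's measure of the significance of a peak over input, so it depends on depth and width. Its median was 87.94 on chromosome 8, 85 on chromosome 11 and 77.13 on the other autosomes, whose own medians ran from 66.96 on chromosome 14 to 84.85 on chromosome 19. The maximum was 758.12 on chromosome 8 and 691.18 on chromosome 11, below the 1933.16 of the other autosomes. A score of 80, the cutoff that the methods of the study state, was reached by 56.4% of the peaks on chromosome 8, 54.0% on chromosome 11 and 47.6% elsewhere. Median width was 572 bp on chromosome 8, 514 bp on chromosome 11 and 479 bp elsewhere, and peaks of 1000 bp or more made up 14.6%, 11.6% and 8.82%. On chromosomes 10, 15, 17 and 19 together the median width was 516 bp and the median score 83.49 (81.23 to 85.49), against intervals of 500 to 527 bp and 81.78 to 88.63 on chromosome 11.

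Along each chromosome the peaks were unevenly spread. In windows of 1 Mb with at least 90% known bases, chromosome 8 held from 0 to 52 peaks (median 13.5, 124 windows) and chromosome 11 from 0 to 38 (median 9.5, 118 windows), whereas the other autosomes held from 0 to 94 (median 2, 2138 windows). The 42 windows of chromosome 8 with 20 or more peaks carried 65.3% of its peaks, and the 19 such windows of chromosome 11 carried 36.5%. Such windows were 33.9% of chromosome 8, 16.1% of chromosome 11 and 3.84% of the other autosomes. Windows without a peak were 4 on chromosome 8 and 8 on chromosome 11. The variance of the counts was 10.1 times their mean on chromosome 8 and 6.11 times on chromosome 11, against 8.92 times on the other autosomes. The median distance between neighboring peaks was 17.9 kb on chromosome 8, 24.4 kb on chromosome 11 and 43.2 kb elsewhere.

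When each chromosome was cut into 10 segments of equal length, numbered from the end with the lowest coordinate, chromosome 8 was densest in segment 10 (24.1 per Mb) and segment 7 (23.3 per Mb), and sparsest in segment 5 (6.30 per Mb). Chromosome 11 was densest in segment 10 (16.8 per Mb) and sparsest in segment 4 (3.53 per Mb). The KO peaks were densest in segment 7 of chromosome 8 (7.36 per Mb), which was next to the highest in WT, and in segment 10 of chromosome 11 (5.91 per Mb), which was also the highest in WT. Other segments differed, with 3.11 per Mb in KO in segment 10 of chromosome 8, and with 0.739 per Mb in segments 8 and 9 of chromosome 11, where WT had 10.998 and 15.7.

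**Figure D2:**
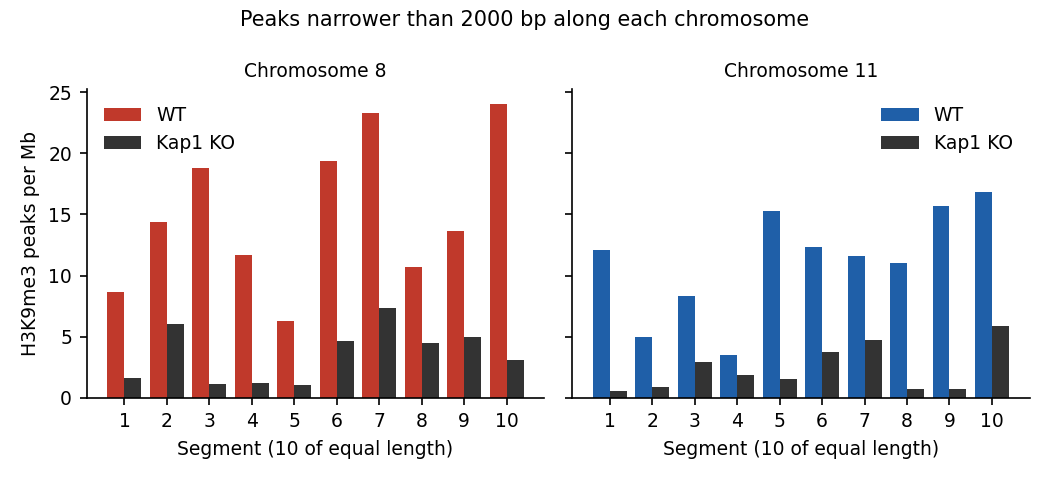
H3K9me3 peaks narrower than 2000 bp per Mb (y axis) in each of 10 equal segments of chromosomes 8 and 11 (x axis), with WT in color and Kap1 KO in black. Each bar is 1 library. WT density is above KO density in every segment of both chromosomes, with 24.1 and 3.11 per Mb in segment 10 of chromosome 8.

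The 3 windows with the most peaks on chromosome 8 lay at 35 to 36, 71 to 72 and 86 to 87 Mb. The window at 35 to 36 Mb held 52 WT peaks and 0 KO peaks, and includes Dusp4, a phosphatase of MAP kinases, Tnks, which encodes the poly-ADP-ribose polymerase tankyrase, and Tmem66. The window at 71 to 72 Mb held 49 WT and 16 KO peaks beside Lpl, the lipoprotein lipase gene, and Zfp930. The window at 86 to 87 Mb held 49 WT peaks and 1 KO peak among 31 protein-coding genes, among them Prkaca, a catalytic subunit of protein kinase A, and the chaperone gene Dnajb1. On chromosome 11 the window at 99 to 100 Mb, which spans type I keratin genes and the chemokine receptor gene Ccr7, held 38 WT peaks. The windows at 6 to 7 Mb, with Ogdh of the citric acid cycle, and at 117 to 118 Mb, with the mitotic gene Birc5 and the cytokine signaling inhibitor Socs3, held 34 and 33. None of these 3 windows held a KO peak. Narrow KO peaks were absent from 42 of the 124 windows of chromosome 8 and 55 of the 118 windows of chromosome 11.

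Windows without a WT peak were poor in GC, between 37.1% and 39.6% on chromosome 8 and between 37.0% and 41.7% on chromosome 11. They include the window of Cdh11, a mesenchymal cadherin, at 105 to 106 Mb of chromosome 8, which had 8 WT H3K27ac peaks, and the window of the transcription factor gene Bcl11a at 24 to 25 Mb of chromosome 11, which had 0. The lack of a peak is a lack of a call in 1 library.

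Peaks were more numerous in windows rich in GC. Mean peaks per window went from 3.31 in windows under 39% GC, over 6.56, 17.1 and 23.2, to 27.03 in windows of 45% or more on chromosome 8, and from 1.50 over 5.33, 7.57 and 11.9 to 16.96 on chromosome 11. On the other autosomes the same steps gave 1.64, 3.197, 4.91, 6.76 and 9.40. In the class of 45% or more, chromosome 8 had 27.03 peaks per window and the other autosomes 9.40. Across windows, Spearman's rho between peaks and GC was 0.80 on chromosome 8 and 0.74 on chromosome 11, against a range of 0.14 (chromosome 18) to 0.77 (chromosome 10) over the others. With protein-coding genes per window rho was 0.71 on both chromosomes, and with WT H3K27ac peaks 0.68 on both. Both lay inside the ranges of the others, 0.20 (chromosome 18) to 0.73 (chromosome 15) for genes and 0.17 (chromosome 18) to 0.74 (chromosome 6) for H3K27ac. With Hepa 1.6 KAP1 peaks rho was 0.68 on chromosome 8 and 0.72 on chromosome 11. With KO H3K9me3 peaks it was 0.07 on chromosome 8 and -0.27 on chromosome 11. Windows of 1 chromosome share a library and are not independent, and base composition, gene number and mappable sequence vary together along them.

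**Figure D3:**
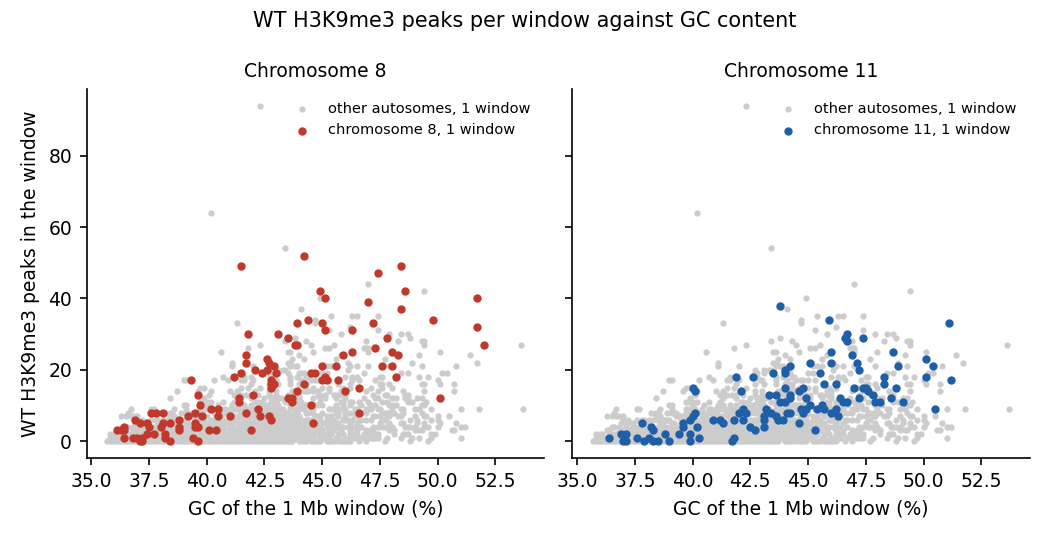
WT H3K9me3 peaks narrower than 2000 bp in each 1 Mb window (y axis) against the GC content of the window in percent (x axis), with chromosome 8 in red, chromosome 11 in blue and the other autosomes in grey in both panels. Each point is 1 or more windows with the same rounded values. The counts reach 52 on chromosome 8 and 38 on chromosome 11, and windows under 39% GC hold at most 8 and 5.

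Peaks in dense windows scored higher and were wider, on chromosomes 8 and 11 and on the other autosomes. On chromosome 8 the median score was 67.9 in windows with under 5 peaks and 91.3 in windows with 20 or more, and the median width was 490 and 591 bp. On chromosome 11 the corresponding scores were 66.8 and 87.8, and the widths 393 and 539 bp. The scores of the other autosomes were 66.1 and 86.7, and the widths 418 and 545 bp. The GC of the peaks themselves did not follow, with medians of 47.4% and 46.8% on chromosome 8 and 47.9% and 46.9% on chromosome 11. Elsewhere these medians were 48.3% and 46.6%. Peaks with at least 10 near copies, as defined below, were 56.2% of those in the sparse windows and 29.8% of those in the dense windows of chromosome 8, and 68.2% and 27.6% on chromosome 11. The other autosomes gave 58.5% and 27.01%, counting copies on chromosomes 8 and 11 only.

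Of the 5 highest scoring peaks on each chromosome, 1 on each lay within 1 kb of a transcript start, and the others lay 3709 to 65510 bp away. On chromosome 8 the peak with a score of 758.12 (chr8:35255429-35256726) lay 37812 bp from the nearest start, that of Tmem66, and overlapped a Hepa 1.6 KAP1 peak. The next (751.92, chr8:72677107-72679037) lay in an intron shared by 2310045N01Rik and Mef2b, a MADS-box transcription factor gene, 427 bp from a start. The others of the top 5 scored 595.86 (between genes, nearest to Snx20), 558.3 (between genes, nearest to Tacc1) and 515.86 (an intron of Dlgap2, which encodes a scaffold of the synapse). Of these 5, only the peak nearest to Tacc1 overlapped a KO peak. On chromosome 11 the highest score was 691.18 at C1ql1, a gene for a secreted C1q-domain protein, with 76.7 CpG per kb and a KAP1 peak. An exon of Spred2, an inhibitor of the Ras to MAP kinase pathway, carried a peak of 653.96 that also overlapped a KAP1 peak. The remaining 3 of the top 5 lay between genes with scores of 612.23 (nearest to Rph3al), 598.52 and 580.36 (nearest to Tnfrsf13b). None of the top 5 on chromosome 11 overlapped a KO peak.

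Within 1 kb of a transcript start lay 106 peaks on chromosome 8 (5.33%, 95% interval 4.38 to 6.41) and 129 on chromosome 11 (9.49%, 7.98 to 11.2), against 6.68% on the other autosomes. The bases within 1 kb of a start were 3.65% of chromosome 8, 7.72% of chromosome 11 and 4.001% of the other autosomes, which is the same order. Distances of peaks were taken from their nearest edge, so wider peaks reach further. The shares of peaks and of single bases are therefore not a like comparison. The 5 highest scores among these peaks on chromosome 8 were those at Mef2b, at the calcium channel gene Cacna1a (482.54), at Gm5607 (473.15), at the photoreceptor gene Nxnl1 (469.25) and at the homeobox gene Irx3 (455.69). On chromosome 11 they were those at C1ql1, Zfp867 (494.19), Sec14l2 (489.16), Gm11623 (390.58) and the olfactory receptor genes Olfr56 and Olfr1396 (388.58). The peak at Olfr56 had 3614 near copies on chromosomes 8 and 11 and that at Irx3 had 0.

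The middle of 31.2% of the peaks on chromosome 8 (29.2 to 33.3) and 35.8% on chromosome 11 (33.3 to 38.4) lay in an annotated gene, against 30.5% on the other autosomes. Genes cover 41.2% of the bases of chromosome 8, 52.0% of chromosome 11 and 41.3% of the other autosomes, so the peaks were less often in genes than bases in general in each set. On chromosome 8, 129 peaks lay in or near Gm20388, an annotated model of 4435 kb that spans many other genes. Exons held 3.82% of the peaks on chromosome 8 and 6.54% on chromosome 11, against 4.63% elsewhere, and introns held 27.4% and 29.3%.

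Of the 2735 protein-coding genes of the 2 chromosomes, 498 (18.2%) had a peak in the gene or within 1 kb, 22.2% on chromosome 8 and 15.6% on chromosome 11. Genes of longer span have more room for a peak, so median lengths are given beside the lists (14.3 kb over all genes). Zinc finger genes, whose KRAB members recruit KAP1, had a peak at 16 of 48 (33.3%, 20.4 to 48.4, median 11.6 kb). Among them were Zfp652 with 6 peaks, Zfp958, Zfp2 and Zfp423 with 4 each, Zfp286 with 3 and a highest score of 528.84, and Zfp867 with 2. At Zfp423 alone among the 16, a peak was also found in KO. Cadherins, the calcium-dependent adhesion molecules, had a peak at 5 of 8 (62.5%, 24.5 to 91.5, median 56.5 kb). These were Cdh13 with 13 peaks over 1041 kb, Cdh1 with 4, Cdh15 with 2 and a score of 442.71, Cdh3 and Cdh16.

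The other families gave the following counts. Keratins and keratin associated proteins had a peak at 5 of 49 (10.2%), olfactory receptors at 4 of 86 (4.65%), defensins at 1 of 35 (2.86%), carboxylesterases at 2 of 21 (9.52%) and CC chemokines at 2 of 15 (13.3%). These are mostly short genes, with medians of 3.91, 1.01, 2.23, 10.2 and 4.74 kb. Schlafens (median 12.1 kb) had a peak at 3 of 8 and myosin heavy chains (26.5 kb) at 2 of 7, with Myh8 at a score of 199.89. Hoxb genes (0 of 10, 4.51 kb), alpha globin genes (0 of 5, 0.82 kb) and metallothioneins (0 of 4, 1.39 kb) had none. Fibroblast genes (26.1 kb) had a peak at 3 of 11, namely Myh10, Timp2 and Pdlim3, with scores of at most 92.06. Cell cycle and DNA repair genes, among them Trp53 and Brca1, had 0 of 11 (18.9 kb, upper bound 28.5%). The intervals of the small lists are wide, and only those of the olfactory receptors (1.28 to 11.5) and the defensins (0.0723 to 14.9) lay below 18.2%, whereas those of the zinc finger genes and the cadherins lay above it. Beside Gm20388, the genes with the most peaks, chosen after their values were seen, were Cacna1a and Dlgap2 (18 each), Wwox (16), Cdh13 (13), Arhgap10 (12) and Osbp2 (11), of which Cacna1a had the highest number per length at 71.5 per Mb.

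Few of these regions were found in KO cells. At an overlap of 1 bp or more, 52 peaks on chromosome 8 (2.61%, 1.96 to 3.41) and 11 on chromosome 11 (0.809%, 0.404 to 1.44) shared bases with a KO H3K9me3 peak, against 3.25% on the other autosomes (347 of 10682, 2.92 to 3.602). Chromosome 11 had the lowest share of the 19 autosomes, and its interval lay below that of the others pooled. Single autosomes had intervals that overlapped that of chromosome 11, among them chromosome 13 (1.11%, 0.3601 to 2.56). The dense chromosomes 19 (1.84%, 0.953 to 3.19) and 15 (1.93%, lower bound 1.17) did so too. The intervals of the dense chromosomes 17 (2.33%, 1.51 to 3.42) and 10 (5.501%, 4.41 to 6.77) lay above it. The interval of chromosome 8 overlapped that of the others pooled. Without the 11 peaks of a repeated array described below, all found in KO, the share of chromosome 8 was 2.07% (1.49 to 2.80). Leaving them out lowers the share by construction, was chosen after seeing the data and was not done on the other autosomes. The KO list is shorter (4319 peaks). With equally long lists cut by score the shares were 3.46% on chromosome 8 and 4.79% on the other autosomes. Depth is unknown, because the files hold no read counts. Of the 78 wider peaks left out, 8 (10.3%) overlapped a KO peak. On the other autosomes the share went from 2.27% at scores of 50 to 80 to 8.47% at 300 or more. On chromosomes 8 and 11 together it went from 1.47% to 1.91% (3 of 157, 0.396 to 5.48), with 2.02% and 2.68% in the classes between.

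The 63 peaks found in both genotypes differed from the other 3286 in sequence. They include the 11 peaks of the array described below, which share sequence and are not independent, yet each is counted. The medians, shares and intervals below were not computed without them. Median GC was 54.3% (51.3 to 57.9) against 46.8% (46.6 to 46.9), and 30.2% of them (19.2 to 43.02) against 6.57% lay within 1 kb of a start. At least 20 CpG per kb were present in 30.2% (19.2 to 43.02) of them and in 17.01% (15.7 to 18.3) of the rest, against 23.2% of all peaks on the other autosomes. Within the other autosomes this share was 23.3% (18.99 to 28.2) among the peaks found in KO and 23.2% among the rest. Median width was 717 bp against 549 bp, and on the other autosomes 595 bp against 476 bp. A tandem repeat, counted where 100 bases in the middle 300 matched themselves after a shift of 1 to 12 bases at 80% or more, was present in 11 of 63 (17.5%, 9.05 to 29.1) and in 46 of 3286 (1.3999%, 1.03 to 1.86), against 3.25% of all peaks on the other autosomes. There too the peaks found in both genotypes had more of them (18.4%, 14.5 to 22.9, against 2.74%). Regularly spaced positions had 1.20% on chromosome 8 and 1.85% on chromosome 11.

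The peaks found in both genotypes with the highest WT scores had lower scores in KO, except those of the array described below. On chromosome 8 the peak near Tacc1 scored 558.3 in WT and 149.98 in KO. At Sall1, a zinc finger transcription factor gene of kidney development, the scores were 342.19 and 59.61, and at Ank1, which encodes the ankyrin of red blood cells, 274.96 and 63.26. On chromosome 11 the Gm11623 peak scored 390.58 in WT and 230.74 in KO. The splicing factor gene Cwc25 had 131.78 and 62.65, and the calcium channel regulator gene Cacng4 had 123.34 and 119.65. At the ion channel gene Accn1, a pair of peaks scored 130.55 and 116.34 in WT and 57.45 each in KO. Scores depend on the depth of each library and were not scaled between them. These peaks were chosen by a high WT score, so a lower KO score can follow from the choice alone. Over the whole H3K9me3 lists the median score was 79.9 in WT and 65.61 in KO. A comparison of scores over all 63 peaks is not given.

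The array on chromosome 8, picked out after its values were seen, was the exception. It held 11 neighboring peaks over 23.4 kb (chr8:57974914-57998330), beside the gene models Gm1153, Gm7349, Gm7354, Gm17293 and Gm7360, and all 11 overlapped a KO peak. WT scores ran from 59.55 to 291.54 and KO scores from 130.79 to 522.21, with the KO score above the WT score at each peak. Some neighboring peaks overlapped the same KO peak. The peaks shared sequence, since 34 of their 55 pairs aligned over at least 200 bp, at a median identity of 97.6%, so reads could be placed on more than 1 of them and the 11 are not independent.

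The KO peaks were themselves dense on these chromosomes, although few of them overlapped a WT peak. Narrow KO peaks lay at 3.57 per Mb on chromosome 8 (470 peaks, rank 2 of 19) and 2.38 per Mb on chromosome 11 (290 peaks, rank 4), against 1.29 per Mb on the other autosomes. The KO density was 2.77-fold that of the others on chromosome 8 (2.51 to 3.06) and 1.85-fold on chromosome 11 (1.63 to 2.09). Chromosome 10 beyond 110 Mb holds many KO peaks, and without it the ratios were 3.602 (3.25 to 3.98) and 2.40 (2.12 to 2.72). Of the narrow KO peaks, 10.4% on chromosome 8 and 3.45% on chromosome 11 overlapped a WT peak of any width. The KO windows with the most peaks, chosen after their values were seen, were on chromosome 8 at 90 to 91 Mb (47 KO and 26 WT peaks, with Zfp423 and Brd7), at 117 to 118 Mb (34 and 17, with the oxidoreductase gene Wwox) and at 22 to 23 Mb (28 and 9, with defensin genes). On chromosome 11 they were at 114 to 115 Mb (28 and 25, with the Cd300 receptor genes), 113 to 114 Mb (25 and 11) and 71 to 72 Mb (21 and 3).

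H3K27ac peaks overlapped these regions about as often as they overlapped narrow H3K9me3 peaks of the other autosomes. A WT H3K27ac peak overlapped 51 of the 3349 peaks (1.52%, 1.14 to 2.00), against 1.26% on the other autosomes. In KO cells an H3K27ac peak overlapped 168 of them (5.02%, 4.30 to 5.81), against 4.56%. The share was higher for KO H3K27ac than for WT H3K27ac on both sets of chromosomes, with 1 library each. Among the peaks with both marks, chosen after their values were seen, the highest scoring were at Cacna1a (482.54) and in D030068K23Rik (394.81) on chromosome 8, and at the axon guidance gene Ntn1 (375.76) and at Tlcd2 (364.56) on chromosome 11. All but the Ntn1 peak also overlapped an H3K27ac peak in KO.

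A Hepa 1.6 KAP1 peak overlapped 149 peaks on chromosome 8 (7.49%, 6.37 to 8.74) and 159 on chromosome 11 (11.7%, 10.0 to 13.5), against 15.5% on the other autosomes (14.8 to 16.2). Chromosome 8 had the lowest share of the 19 autosomes, and the others ran from 10.7% on chromosome 9 to 24.1% on chromosome 18. Chromosome 11 was close to the dense chromosomes 17 (11.1%) and 10 (11.9%), whereas chromosome 19 had 13.3% and chromosome 15 had 18.6%. The share was higher among peaks with higher scores, from 3.92% at scores of 50 to 80 to 26.0% at 300 or more on chromosome 8, and from 6.88% to 34.0% on chromosome 11. The other autosomes went from 10.5% to 37.3% over the same classes. KAP1 was mapped in another cell type, and KAP1 of MEFs was not analysed here.

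Near copies were counted by aligning the middle 300 bases of each peak to chromosomes 8 and 11 only, at 80% identity or more over at least 150 bp. For peaks of the other autosomes, copies on their own chromosome were therefore not counted. Their shares are not a like comparison with those of chromosomes 8 and 11. At least 10 near copies were found for 33.8% of the peaks on chromosome 8 (31.7 to 35.9) and 30.5% on chromosome 11 (28.1 to 33.0), against 39.9% on the other autosomes. Regularly spaced positions gave 15.4% on chromosome 8 and 13.3% on chromosome 11. No near copy was found for 53.6% and 57.6% of the peaks, against 48.1% on the other autosomes and 78.3% and 80.2% of the regularly spaced positions of chromosomes 8 and 11. Median GC of the peaks was 46.8% on chromosome 8 and 46.9% on chromosome 11, close to the 47.1% elsewhere, whereas the chromosomes themselves have 42.4%, 43.8% and 41.8%. CpG-rich peaks, with at least 20 CpG per kb, were 18.0% and 16.2%.

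The width of H3K27ac peaks shared by both genotypes was used to look for chromosomes with more or fewer reads in one of them, since a peak with more reads is called wider. Over pairs of H3K27ac peaks that overlapped only each other, the median log2 ratio of WT to KO width was 0.11 on chromosome 8 (0.095 to 0.12, 1578 pairs) and 0.023 on chromosome 11 (0.013 to 0.034, 1999 pairs). The 17 other autosomes had a median of 0.048 and ran from -0.19 on chromosome 18 to 0.18 on chromosome 4. Chromosome 8 ranked 4 of 19 and chromosome 11 ranked 15, so both lay inside the range of the others. Among the other dense chromosomes, chromosome 10 had 0.15, chromosome 17 had 0.072, chromosome 19 had 0.097 and chromosome 15 had 0.017. The number of H3K27ac peaks in WT was 1.05 times that in KO on chromosome 8 and 0.971 times on chromosome 11, against 0.669 (chromosome 18) to 1.21 (chromosome 10). These values compare WT with KO, and a gain present in both genotypes would not show in them. Both genotypes had dense H3K9me3 on chromosomes 8 and 11, and copy number itself was not tested.

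**Figure D4:**
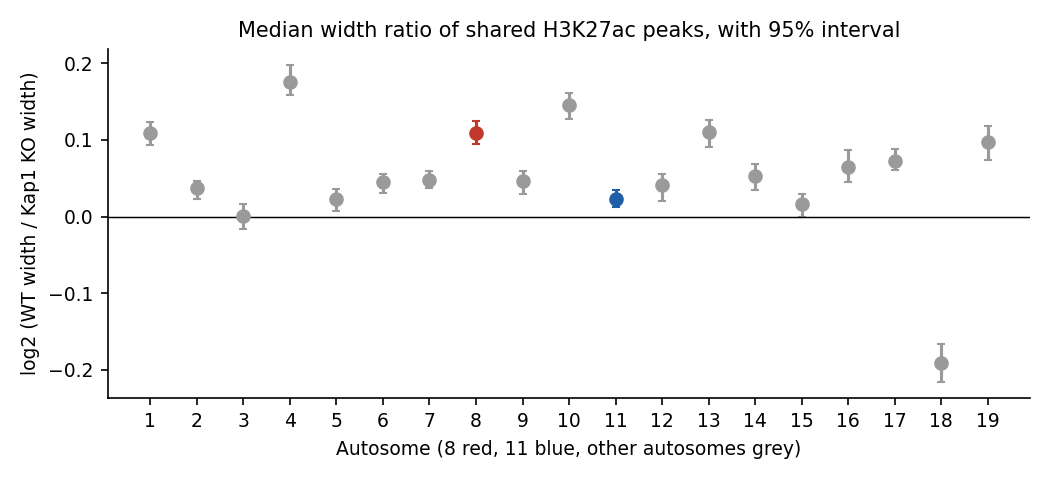
Median log2 ratio of WT to Kap1 KO width of shared H3K27ac peaks (y axis) on each autosome (x axis), with chromosome 8 in red, 11 in blue and the other autosomes in grey. Bars are 95% intervals of the median over peaks. Chromosome 8 is at 0.11 and chromosome 11 at 0.023, between chromosome 18 at -0.19 and chromosome 4 at 0.18.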

How the data were processed

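The data were ChIP-seq peak lists of MEFs (WT and Kap1 KO, H3K9me3 and H3K27ac) and of Hepa 1.6 cells (KAP1), with 1 library each. Per the labels and the methods of the study, the authors mapped reads to mm9 with Bowtie2 (2.2.1) and called peaks per library with MACS (1.4) against total input. The deposited column is a peak score, by convention of this caller a p-value on a log10 scale, which the lists do not state. The stated cutoff was 80, whereas the H3K9me3 lists of the MEFs start at 50.01 (WT) and 50.03 (KO). Reads were not analysed here, so depth is unknown. A list of 2957 Hepa 1.6 SETDB1 sites, all of them also entries of the KAP1 list, was not used here.

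Overlaps (1 bp or more), windows of 1 Mb, gene context (GENCODE vM1 on NCBIM37, the same assembly as mm9) and sequence were computed with Python (3.11.15), pysam (0.24.0) and blastn (2.17.0). Windows use the middle of a peak. The overlap step was checked on simulated data, where it recovered 200 of 200 planted overlaps, and gave the same 462 overlapping WT peaks as bedtools (2.31.1). Shares have exact Clopper-Pearson 95% intervals, density ratios a conditional exact interval and medians an order-statistic interval.

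The regions, gene lists and comparisons were chosen with earlier results of these data known, and the array, the tandem repeat count and the dense chromosomes set beside 8 and 11 after seeing the values. Named regions were the 5 highest scores on each chromosome, those near starts and among peaks found in KO, the 3 windows with the most peaks, and the 3 peaks on each side of the width limit.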

Additional observations from a re-analysis of the deposited data

How the results depend on the processing

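Of 63 alternative values over 13 results, 42 moved by less than their interval. With scores of at least 80, the density relative to the other autosomes was 3.71 on chromosome 8 and 2.63 on chromosome 11. With the 50% highest scores it was 3.71 and 2.64, and for widths under 1000 bp it was 2.94 on chromosome 8. In windows of 500 kb the highest density on chromosome 8 was 74 peaks per Mb. The share of peaks on chromosome 8 found in KO was 1.88% for widths under 1000 bp, 3.57% for peaks within 1 kb and 3.46% with lists of equal length by score. On the other autosomes these shares were 2.86%, 4.17% and 4.79%. Of all regions, 22.6% lay within 5 kb of a start, and with protein-coding genes only 5.20% lay within 1 kb of a start and 29.9% in a gene. Narrow peaks of the other autosomes gave 19.1%, 4.89% and 27.3%. Overlap with WT H3K27ac was 0.915% with the 50% highest scores, 0.896% at an overlap of 50% of the shorter peak and 4.42% within 1 kb. For the other autosomes these values were 0.785%, 0.871% and 3.52%. Overlap with KAP1 was 7.86% with the 50% highest scores, 7.58% for widths under 1000 bp, 7.58% at an overlap of 50% and 14.9% within 1 kb, and the other autosomes gave 14.7%, 14.3%, 12.3% and 22.0%. From the summed width of all H3K27ac peaks, the log2 ratio was 0.15 on chromosome 8 and -0.0055 on chromosome 11, which reversed the sign of a small value, and the cause was not tested. Leaving out the array was chosen after seeing the data. Other settings use fewer or more peaks by construction. With 1 library per genotype, no library could be left out. No paired analysis was possible because each group here has 1 library and no result comes from a test.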
